A study of Mus musculus with 4 samples.

Results

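The cells described here are bone marrow stromal cells with Adipoq, Cxcl12 and Lpl transcripts, taken from mice aged 16 months and set against the same kind of cell from mice aged 3 months. They were chosen by their own counts. A cell entered with 200 to 6000 detected genes, at most 5% of its UMIs (unique molecular identifiers, each standing for 1 captured transcript) from mitochondrial genes, at least 80 Cxcl12, 8 Adipoq and 5 Lpl UMIs per 10000, and 0 UMIs of Ptprc, the gene of the pan-leukocyte protein CD45. Of 4180 filtered cells at 3 months 298 met the rule, and of 6143 at 16 months 2719 did, together 3017 of the 13745 barcodes of these 2 libraries and of the 27907 barcodes in the whole data set. They are called Adipoq Cxcl12 cells below.

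All mice were male Col2-Cre Rosa26 lsl-tdTomato (Col2:Td) animals on a B6SJL/F1 background, in which Cre driven by a type II collagen promoter switches on the red reporter Td in mesenchymal cells of the marrow and in all their descendants. Td+ cells were sorted from the endosteal bone marrow of long bones, as the top 1% of Td signal where no clear peak was seen and as the whole peak where there was one. Libraries were made from animals aged 1, 1.5, 3 and 16 months, pooled from 2, 3, 3 and 3 mice. There was therefore 1 library per age and no replicate, no test was possible, and each interval below covers counting error only, not the spread between mice.

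Marrow stromal cells of this kind line the sinusoids and send thin processes through the marrow. They carry adipocyte genes such as Adipoq (adiponectin) and Lpl (lipoprotein lipase) without the stored lipid of a fat cell, and the study calls them marrow adipogenic lineage precursors. Cxcl12, the chemokine that holds hematopoietic stem and progenitor cells in the marrow, and Kitl, stem cell factor, are the signals for which they are best known, and they also supply cytokines that act on osteoclasts, vessels and osteoblasts.

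The 16 month library differed from the younger ones in more than age. Its table lists 31054 genes against 27999 in the 3 others, with 26600 in common, and its barcodes begin with 960 different runs of 7 bases against 480 in each younger library, 129 of them shared. It had 32.4% of barcodes over the mitochondrial limit, against 1.16 to 7.22% in the younger libraries, and 574 cells that met the Cxcl12, Adipoq and Lpl limits were lost to that limit, against 1 at 3 months. Its Adipoq Cxcl12 cells were also deeper, with a median of 9718 UMIs and 3015 genes per cell against 4036.5 UMIs and 1689.5 genes at 3 months. Age, gene table, library and sort cannot be told apart in any 16 to 3 month difference given here. Any 2 libraries shared 1 to 61 barcodes, and doublets were not called.

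Adipoq Cxcl12 cells made up 7.13% of filtered cells at 3 months (95% Clopper-Pearson interval 6.37 to 7.95) and 44.3% at 16 months (43.0 to 45.5), with 1.95% at 1 month and 20.6% at 1.5 months. The order of the shares thus was not the order of the ages. These shares depend on the sort, which was gated on Td, and on the blood cells that came through it. Among cells with Cxcl12 over its limit and no Ptprc UMI, 55.0% at 3 months (50.7 to 59.2) and 65.5% at 16 months (64.0 to 66.9) met the other limits as well, and the lower depth at 3 months meant that a cell of median depth needed 3.23 Adipoq UMIs there and 7.77 at 16 months.

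The limits cut through a continuum. At 3 months the member lowest in Adipoq had 8.05 UMIs per 10000 and the highest cell kept out by that limit alone 7.97, and at 16 months these were 8.01 and 7.98. For Lpl the corresponding pairs were 5.22 and 4.89 at 3 months and 5.02 and 4.96 at 16 months, and for Cxcl12 they were 91.7 and 78.5, and 83.3 and 69.7. Adipoq alone kept out 139 cells at 3 months, 38 of them with 0 Adipoq UMIs, and 1042 at 16 months, 145 of them with 0. As a description of what chose them, the median member had 262 Cxcl12 UMIs per 10000 at 3 months and 268 at 16 months, 19.1 and 17.8 for Adipoq, and 18.9 and 26.4 for Lpl.

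Genes that the rule did not use were checked against the label, and those known from marrow stroma were high in these cells. Expression is given as CPM, the UMIs of a gene per 1000000 UMIs summed over the Adipoq Cxcl12 cells of a library. Beside it stand 2 other kinds of cell from the same libraries. The Ptprc-positive cells (749 at 3 months, 460 at 16 months) had at least 1 Ptprc UMI and Cxcl12 under its limit, and the Col1a1-high cells (756 and 566) had no Ptprc UMI, Cxcl12 under its limit, at least 50 Col1a1 and under 50 Col2a1 UMIs per 10000. Vcam1, an adhesion molecule of marrow stroma, was at 1315 CPM at 3 months and 1994 at 16 months in Adipoq Cxcl12 cells and at 64.9 and 101 in Col1a1-high cells. Hp, haptoglobin, was at 8889 and 6945 CPM, against 79.9 and 99.8 in Col1a1-high cells. Il7, the lymphoid growth factor, stood at 61.8 and 102 CPM in the Adipoq Cxcl12 cells and no higher than 1.58 in either of the others. The reporter transcript was at 3671 and 4553 CPM, against 3683 and 4522 in Col1a1-high and 2289 and 480 in Ptprc-positive cells. It thus did not set Adipoq Cxcl12 cells apart from Col1a1-high cells.

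Of the 3319 genes with at least 50 CPM in the library where they were higher, 317 were at least 2-fold higher at 16 months and 215 at least 2-fold lower. RNA freed from broken cells is taken up by every droplet, so a gene was set aside when its CPM difference in Ptprc-positive cells had the same sign and was at least 25% as large as in Adipoq Cxcl12 cells. This removed 141 of the higher and 169 of the lower genes and left 176 higher (percent called 5.3 of all tested) and 46 lower (1.39). The criterion left in 4 higher and 10 lower genes whose level in both libraries was higher in Ptprc-positive cells than in Adipoq Cxcl12 cells. Without them, a setting added after the values were seen, 172 were higher and 36 lower. The median log2 ratio of all tested genes was -0.04. In all, 169 of the 176 higher genes were also above their 1 and 1.5 month levels and 39 of the 46 lower ones below both.

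**Figure D1:**
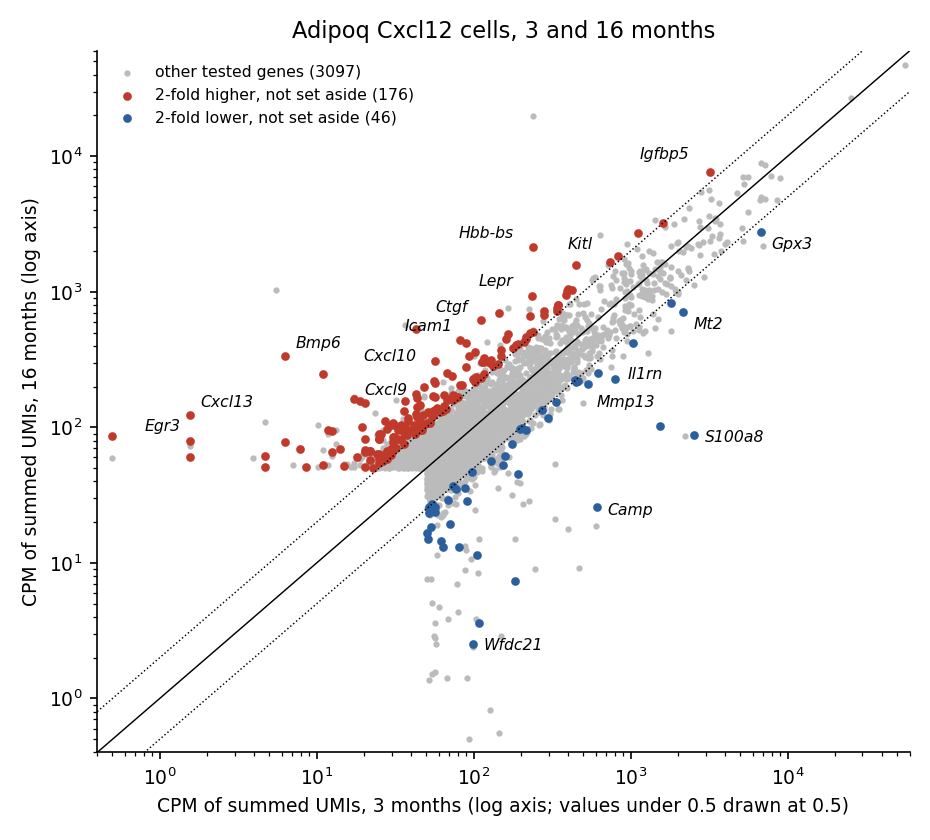
CPM of each tested gene in Adipoq Cxcl12 cells at 3 months (x) and 16 months (y), both on log axes, with values under 0.5 drawn at 0.5 and the rows of a gene that a table lists under several symbols summed. The solid line marks equal levels and the dotted lines 2-fold. The 176 red genes lie above and the 46 blue genes below the dotted lines, and grey points past those lines were set aside because Ptprc-positive cells moved with them.

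Many of these differences were not particular to Adipoq Cxcl12 cells. Of the 176 higher genes 86 were also at least 2-fold higher in Col1a1-high cells, 94 in Ptprc-positive cells and 64 in both, while 60 were under 2-fold in both. The median log2 ratio of the 176 was 1.32 in Adipoq Cxcl12 cells, 1.08 in Ptprc-positive cells and 0.97 in Col1a1-high cells, where that of all tested genes was 0.02 and -0.06. Of the 46 lower genes 25 were also at least 2-fold lower in Col1a1-high cells, 9 in Ptprc-positive cells and 7 in both, with 19 under 2-fold in both. The other cells' values are therefore given beside many of the genes below. A smaller group moved at least 2-fold further than in either kind of other cell, 27 genes upward and 6 downward, a criterion added after the values were seen. The upward genes include the hemoglobin genes Hba-a1, Hba-a2, Hbb-bs and Hbb-bt, and the downward ones the neutrophil genes Retnlg and Wfdc21. RNA of blood cells is described further below.

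The symbols of the 2 gene tables also differ, which matters for genes that seem to be absent from 1 library. Atn1, a transcriptional co-repressor, was at 0 CPM at 3 months and 82.8 at 16 months under that symbol, but the 3 month table holds a further row, Atn1.1, that the 16 month table lacks. With both rows summed, a step added after the values were seen, Atn1 was at 20.3 and 82.7 CPM, a log2 ratio of 2.00, and it went from 3.48 to 17.9 CPM in Ptprc-positive cells and from 7.49 to 24.8 in Col1a1-high cells. The same step took Mia2, listed as Ctage5 at 3 months, from 0 and 59.1 to 53.2 and 59.1 CPM, and Atp5o, split into Atp5o.1 at 16 months, from 267 and 0 to 267 and 174 CPM. In all, 8 tested genes had a further row in 1 table, Atn1 being the only one of them called, and summing left the 176 and 46 calls as they were. Mia2 and Atp5o, counted above among the genes set aside, were then under 2-fold.

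**Figure D2:**
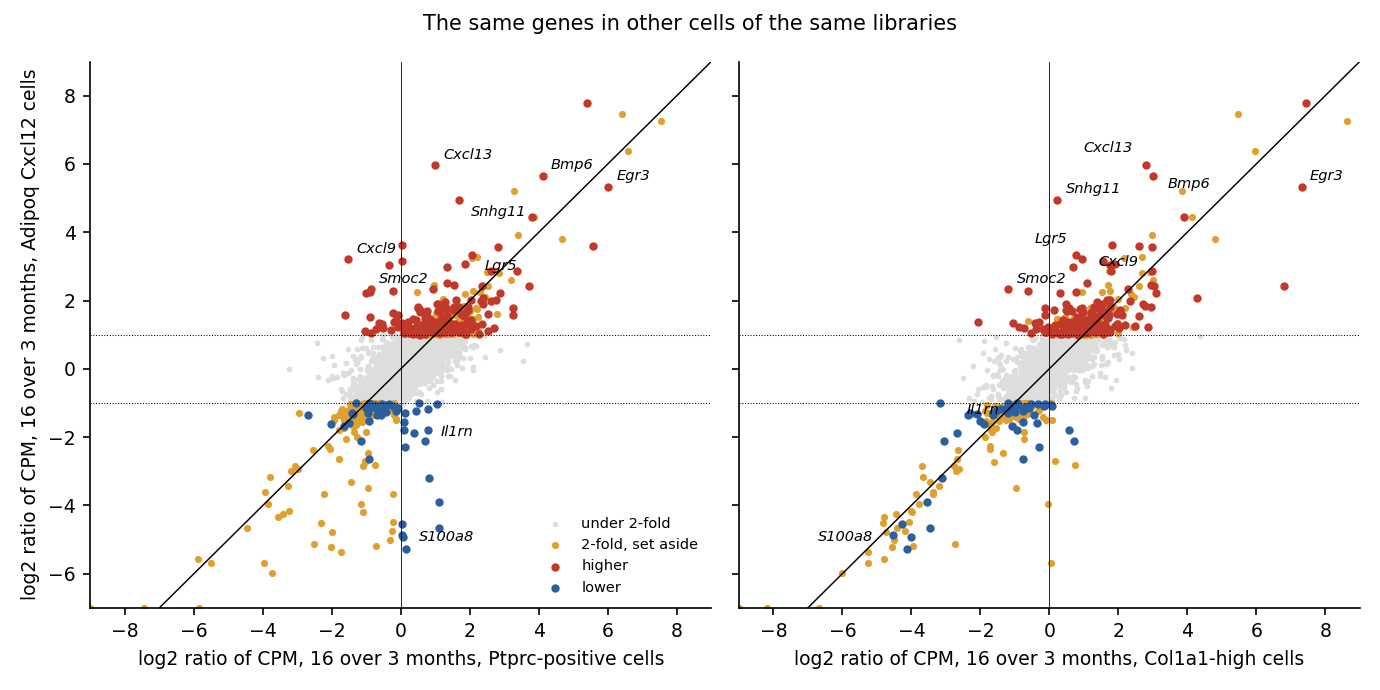
Log2 ratio of CPM, 16 over 3 months, in Adipoq Cxcl12 cells (y) against the same ratio in Ptprc-positive cells (left x) and Col1a1-high cells (right x), each point 1 tested gene, with points past an axis drawn at its edge. The solid diagonal marks equal ratios and the dotted lines 2-fold in Adipoq Cxcl12 cells. Genes with rows under several symbols are drawn with those rows summed. Cxcl13, Snhg11 and Smoc2 lie far above the diagonal in both panels, and S100a8 is low in the right panel but near 0 on the left x axis.

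Of 14 tested stem cell niche factors 2 were higher (14.3%) and 0 lower, with a median log2 ratio of 0.46 against -0.04 over all tested genes. Over all 3319 tested genes 5.3% were higher and 1.39% lower, and each list count below stands beside these shares. The same genes had medians of 0.73 in Ptprc-positive and 0.44 in Col1a1-high cells. Kitl, the ligand of the Kit receptor on stem and progenitor cells, was at 600, 722, 734 and 1660 CPM at 1, 1.5, 3 and 16 months, so the 3 younger libraries lay close together and the oldest stood above them. Its log2 ratio of 16 over 3 months was 1.18 (1.08 to 1.27), and Ptprc-positive cells held 10.9 and 45.1 CPM. The second was Angpt1, the ligand of the Tie2 receptor that keeps vessels tight, at 112, 91.6, 75.2 and 170 CPM, with 3.14 and 7.42 in Ptprc-positive cells. Csf1, which drives macrophage and osteoclast precursors, stood at 348 and 632 CPM (log2 0.86), and Cxcl12 itself, which chose the cells, at 25364 and 26756. Igf1 lay on the other side, at 744, 412, 272 and 141 CPM, the lowest level being that of the oldest library (log2 -0.95, under 2-fold).

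Lepr, the leptin receptor that marks adult marrow stroma, stood well above its younger levels at 16 months. Its levels were 163, 321, 236 (211 to 265) and 931 CPM (919 to 942) at 1, 1.5, 3 and 16 months, a log2 ratio of 1.97 (1.81 to 2.15) over 3 months. The 16 month value lay far above the 3 others, while in Ptprc-positive cells Lepr was at 4.80 and 30.1 CPM and in Col1a1-high cells at 6.67 and 34.2. When every cell was thinned to 3000 UMIs, which kept 268 of 298 cells at 3 months and 2584 of 2719 at 16 months, a Lepr UMI was found in 52.2% and 89.4% of Adipoq Cxcl12 cells (58.7% and 97.9% unthinned). In the Ptprc-positive cells, which should lack it, thinned shares were 1.63% and 3.71%, at median depths of 6492 and 8261 UMIs.

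Adipoq and Lpl, which chose the cells, belong to the adipogenic programme, so its levels are a description of cells held to a like level of both. Of 5 tested adipogenic transcription factors 1 was higher, Ebf3, a factor that keeps the marrow cavity open, at 201, 260, 279 and 672 CPM and a log2 ratio of 1.27 (1.12 to 1.43), with 5.30 and 24.2 CPM in Ptprc-positive and 4.07 and 15.5 in Col1a1-high cells. Pparg, the master regulator of fat cells, was at 61.8 and 68.2 CPM (log2 0.13, -0.18 to 0.48) and Cebpa, its partner, at 278 and 327 (0.23, 0.08 to 0.39). Cebpb, an early adipogenic and inflammatory factor, was at 2349 and 1420 CPM. None of the 7 tested lipid genes reached 2-fold in either direction, with a median log2 ratio of 0.63 in Adipoq Cxcl12 cells, -0.09 in Ptprc-positive and 0.34 in Col1a1-high cells. Apoe, which carries lipid between cells, was at 7222 and 8594 CPM, Plin2, a lipid droplet coat protein, at 88.5 and 137, and Fabp4, a fatty acid carrier, at 294 and 245. Of 17 tested markers of the adipogenic lineage 4 were higher (Lepr, Vegfa, Vegfc and Grem1; 23.5%, against 5.3% of all tested genes) and 1 lower (Il1rn). That list was drawn by the study from these same samples and is no independent evidence.

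**Figure D3:**
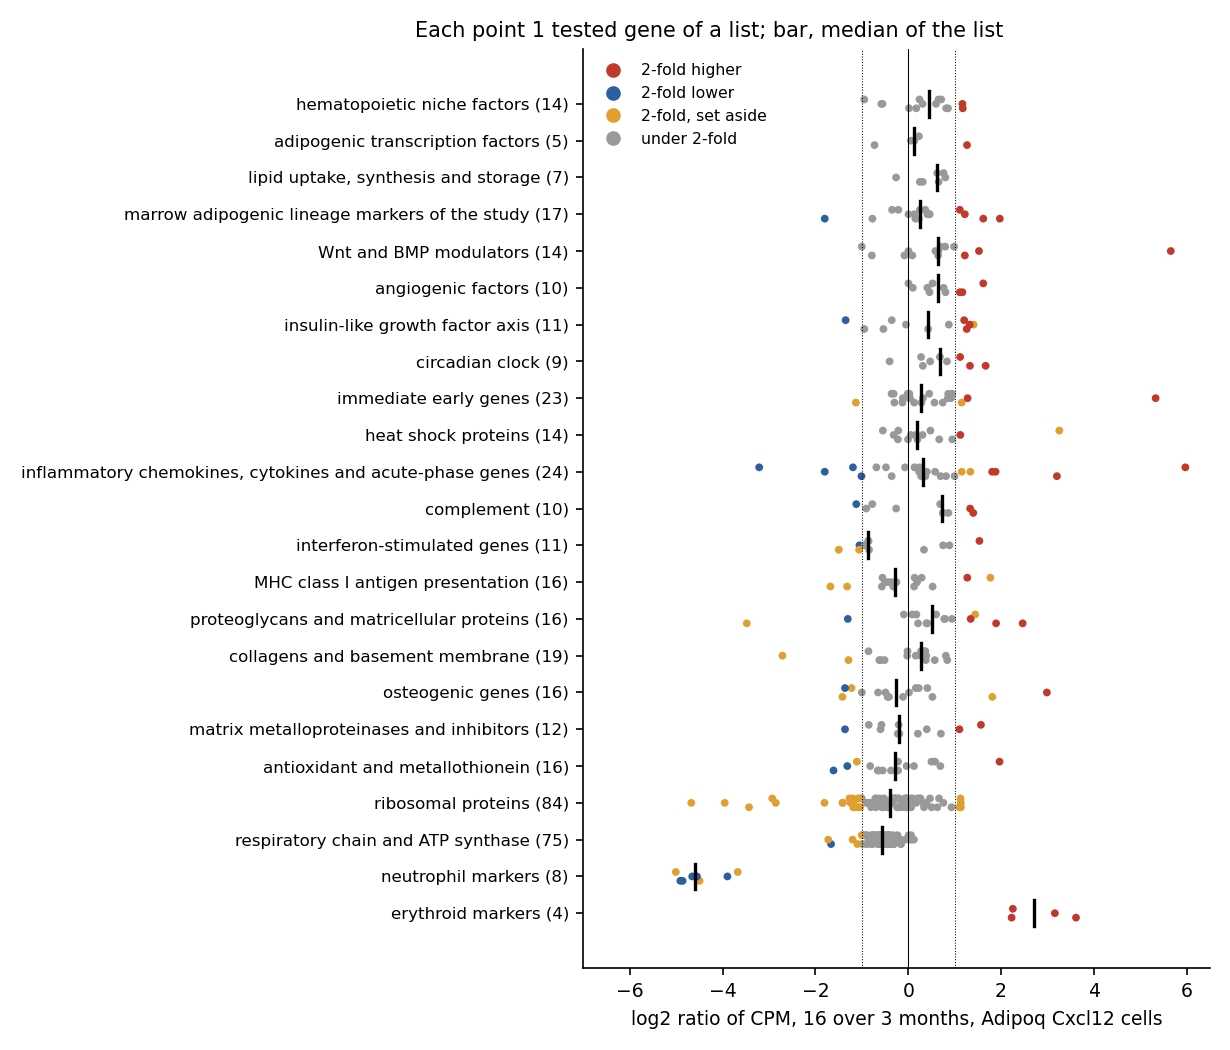
Log2 ratio of CPM, 16 over 3 months, in Adipoq Cxcl12 cells for every tested gene of 23 gene lists, with the number tested in brackets, and the median as a black bar. A gene with rows under several symbols is drawn with them summed. Red and blue genes were at least 2-fold higher or lower and orange ones were set aside. Among the lists drawn, the neutrophil and erythroid ones stand apart at -4.60 and 2.71, and most other medians lie between -1 and 1. Chondrocyte, MHC class II and macrophage markers, with medians of -4.92, -3.75 and -3.49, are not drawn. The 4 tested MHC class II genes were all set aside as lower, that list summing to 526 CPM at 3 months and 43.5 at 16 months.

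Among secreted signals of the BMP and Wnt pathways 3 of 14 tested genes were higher (21.4%, against 5.3% of all tested genes) and 0 lower. Median log2 ratios were 0.65 here, 1.04 in Ptprc-positive and 0.29 in Col1a1-high cells. Bmp6, a ligand known in the liver for raising hepcidin and in bone for driving osteoblast formation, was low in all 3 younger libraries, at 2.46, 4.77 and 6.26 CPM (2.70 to 12.3), and reached 336 CPM (329 to 343) at 16 months. This was a log2 ratio of 5.66 (4.77 to 6.96). Ptprc-positive cells went from 0.33 to 7.04 CPM and Col1a1-high cells from 0.81 to 7.20, so Bmp6 was one of the 27 genes that moved further here than in either. Its UMIs were spread widely over the cells, with 1.49% of thinned cells holding one at 3 months and 61.5% at 16 months (2.68% and 88.8% unthinned, and 0.148% and 1.49% of thinned Ptprc-positive cells), and the 10% of cells richest in it held 20.2% of its UMIs at 16 months. Bmp2, an osteogenic ligand, was at 43.5, 51.6, 32.9 and 95.8 CPM, with 41.8 and 72.4 in Col1a1-high cells, and Grem1, a secreted BMP antagonist, at 393, 393, 345 and 805 CPM, with 2.28 and 17.2. A second antagonist, Chrdl1, stood at 413 and 820 CPM (log2 0.99), just under 2-fold, while the Wnt inhibitors Wif1 and Sfrp4 had lower levels at 16 months, at 228 and 114 CPM and 930 and 541 CPM, both under 2-fold.

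**Figure D4:**
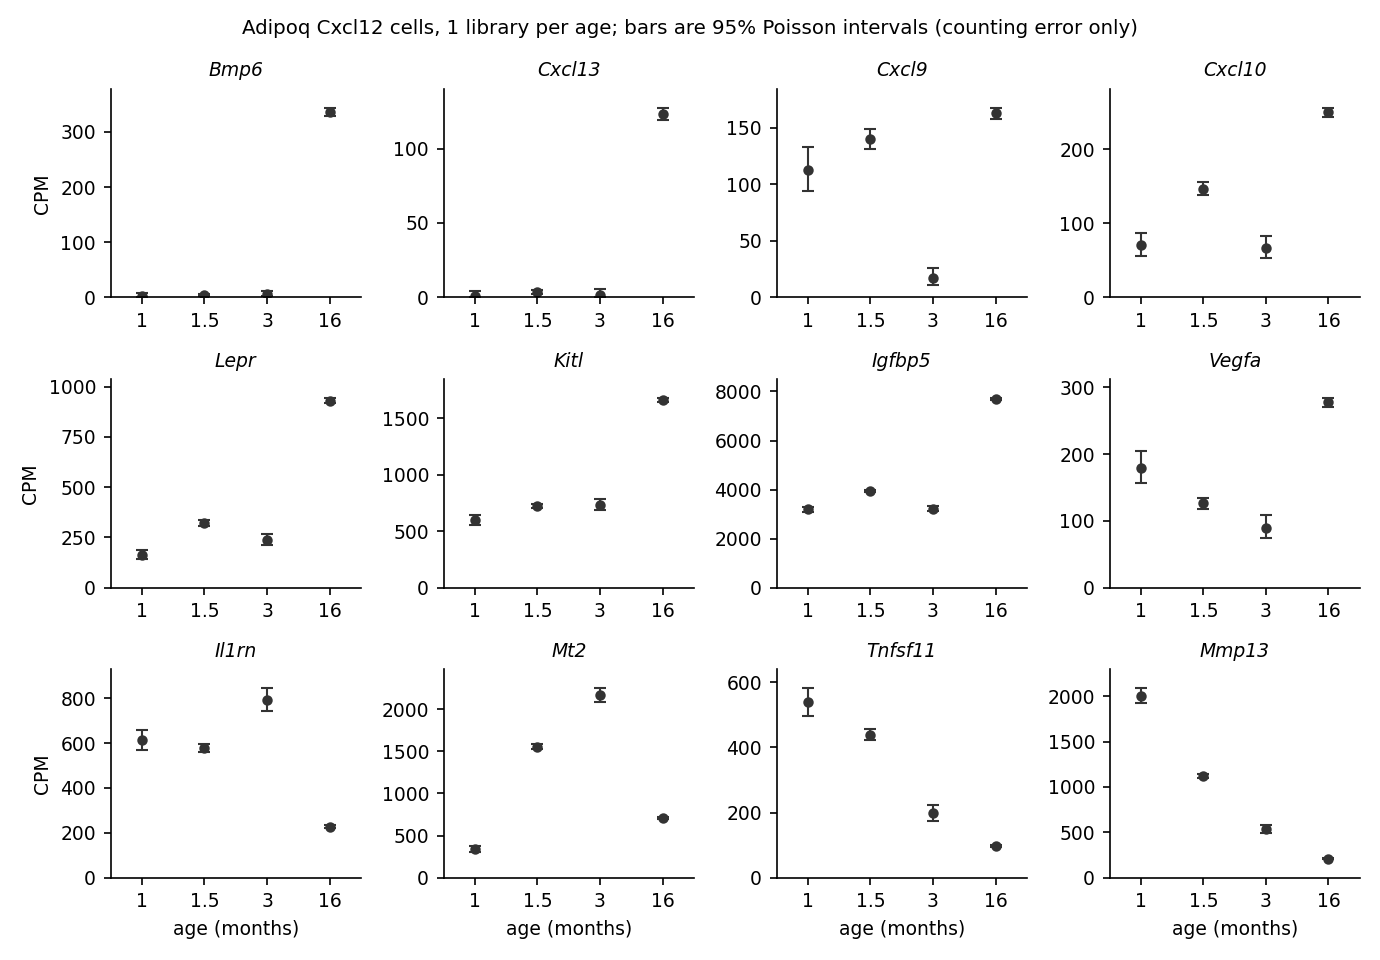
CPM of 12 genes in Adipoq Cxcl12 cells at 1, 1.5, 3 and 16 months, 1 library per age, with bars for 95% Poisson intervals that cover counting error only. Bmp6, Cxcl13, Lepr, Kitl and Igfbp5 stand highest at 16 months, Tnfsf11 and Mmp13 become lower at each older age, and Cxcl9 is low at 3 months alone.

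Inflammatory genes went both ways. Of 24 tested, 4 were higher (Cxcl13, Cxcl9, Cxcl10 and Icam1) and 4 lower (Lcn2, Il1rn, Cxcl2 and Ccl7). This was 16.7% each way, against 5.3% and 1.39% of all tested genes. A further 2 higher genes were set aside, and the median log2 ratio was 0.32 here, 0.67 in Ptprc-positive and 0.37 in Col1a1-high cells. Lcn2, at 106 and 11.4 CPM here, is a neutrophil product that Ptprc-positive cells held at far higher levels, given below. The part of blood cell RNA in its call was not tested. Cxcl13, the chemokine that draws B cells into follicles, was at 0.82, 3.33 and 1.57 CPM (0.190 to 5.66) in the younger libraries and 123 (119 to 127) at 16 months, a log2 ratio of 5.97 (4.44 to 9.34). Ptprc-positive and Col1a1-high cells stayed at or below 1.71 CPM. It was held by few cells at 16 months, where 7.70% of thinned cells had a UMI (13.3% unthinned, and 0.248% of thinned Ptprc-positive cells) and the richest 10% of cells held 97.2% of all its UMIs. Cxcl9, an interferon gamma-inducible ligand of Cxcr3 on T cells, was at 112, 140, 17.2 (10.8 to 26.1) and 162 CPM (158 to 167). The 3 month library was thus the low one, and against the mean of the 3 younger libraries its log2 ratio was 0.85 rather than 3.21, under 2-fold. Cxcl10, another Cxcr3 ligand, was at 70.6, 147, 67.3 and 250 CPM, with 18.7 and 39.4 CPM in Ptprc-positive cells. Icam1, an adhesion molecule for leukocyte integrins, was at 48.4, 78.2, 103 and 361 CPM, and 15.6 and 38.7 CPM in Col1a1-high cells.

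These chemokines did not mark the same cells to the same degree. Of the 2584 thinned cells at 16 months 200 had a Cxcl9 UMI, 425 a Cxcl10 UMI and 199 a Cxcl13 UMI. Cxcl10 was found in 27% of cells with Cxcl9 and 15.6% of those without, and Iigp1 and Gbp2, interferon-induced GTPases, in 48% and 27% against 25.6% and 13.2%. In contrast, Bmp6 was found in 61% of cells with Cxcl9 and 61.5% of the rest. Cells with Cxcl10 more often had UMIs of Irf1 (80.7% against 65.2%), Icam1 (62.4% against 48.7%) and Ccl2 (59.3% against 43.7%). All of these cells share 1 library, so the shares are a description.

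The promoters of Cxcl10 and Icam1, which were higher together, and of Mt2, which was lower, are shown because they hold the letters that factors of the inflammatory and stress responses are known to bind. Each is the 250 bases before the RefSeq start site, 5′ to 3′ on the coding strand in GRCm38.p6, with capitals for the motifs found, and motifs were searched on both strands from 250 bases before to 50 after the start.
Cxcl10, chr5:92348890-92349139, minus strand: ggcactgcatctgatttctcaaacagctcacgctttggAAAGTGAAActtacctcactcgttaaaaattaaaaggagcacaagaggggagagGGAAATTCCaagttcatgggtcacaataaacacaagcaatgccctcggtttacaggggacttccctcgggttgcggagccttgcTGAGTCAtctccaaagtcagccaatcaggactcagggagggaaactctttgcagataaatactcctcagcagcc
Icam1, chr9:21015690-21015939, plus strand: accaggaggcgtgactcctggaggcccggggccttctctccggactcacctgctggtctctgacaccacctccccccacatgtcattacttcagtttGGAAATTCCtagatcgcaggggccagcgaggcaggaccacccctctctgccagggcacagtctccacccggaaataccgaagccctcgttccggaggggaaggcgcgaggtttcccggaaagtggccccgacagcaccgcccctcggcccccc
Mt2, chr8:94172368-94172617, plus strand: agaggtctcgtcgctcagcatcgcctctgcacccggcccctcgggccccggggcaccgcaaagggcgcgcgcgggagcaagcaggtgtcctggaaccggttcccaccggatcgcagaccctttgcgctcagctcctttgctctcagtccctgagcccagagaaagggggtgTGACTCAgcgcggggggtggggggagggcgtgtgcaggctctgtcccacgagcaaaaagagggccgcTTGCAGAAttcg

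In Cxcl10 the capitals mark, from the left, an interferon response core (TTTCNNTTT, here read on the other strand) beginning 212 bases before the start, an NF-kB match (GGANTTTCC, other strand) at 158 bases and an AP-1 match (TGANTCA) at 74. Icam1 holds the same NF-kB letters at 153 bases, and Mt2 an AP-1 match at 79 bases and a C/EBP match (TTGCNNAA) at 12. Of the 121 higher genes with a promoter in the table, Cxcl10 and Icam1 were the only 2 (1.65%) with the NF-kB letters, against 1.45% of all 27025 promoters, 2% of the promoters of tested genes and 5.56% of those of the 36 lower genes. The interferon core was in 15.7% of the 121, 19.4% of the 36 lower genes and 12.1% of all, and the C/EBP letters were in 12.4%, 25% and 12.2%. AP-1 letters were in 7.44%, 13.9% and 8.97%. Among the promoters of tested genes the interferon core was in 9.78%, the C/EBP letters in 10.7% and the AP-1 letters in 6.32%. A match is a run of letters and not a bound site.

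Il1rn, the secreted antagonist of the interleukin 1 receptor, was among the lowest genes. Its levels were 614, 578, 793 (745 to 843) and 228 CPM (222 to 234) at 1, 1.5, 3 and 16 months, the oldest library lying below the 3 others, with a log2 ratio of -1.80 (-1.89 to -1.70). Ptprc-positive cells went the other way, from 34.3 to 59.6 CPM, and Col1a1-high cells held 4.07 and 2.11. A thinned cell had an Il1rn UMI in 69.0% of cases at 3 months and 39.0% at 16 months (73.5% and 64.7% unthinned). Ccl2, the monocyte chemokine, was at 1772 and 1272 CPM and Cxcl1, a neutrophil chemokine, at 928 and 1226, both under 2-fold, while Ccl7, close kin of Ccl2, was at 445 and 222 CPM.

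**Figure D5:**
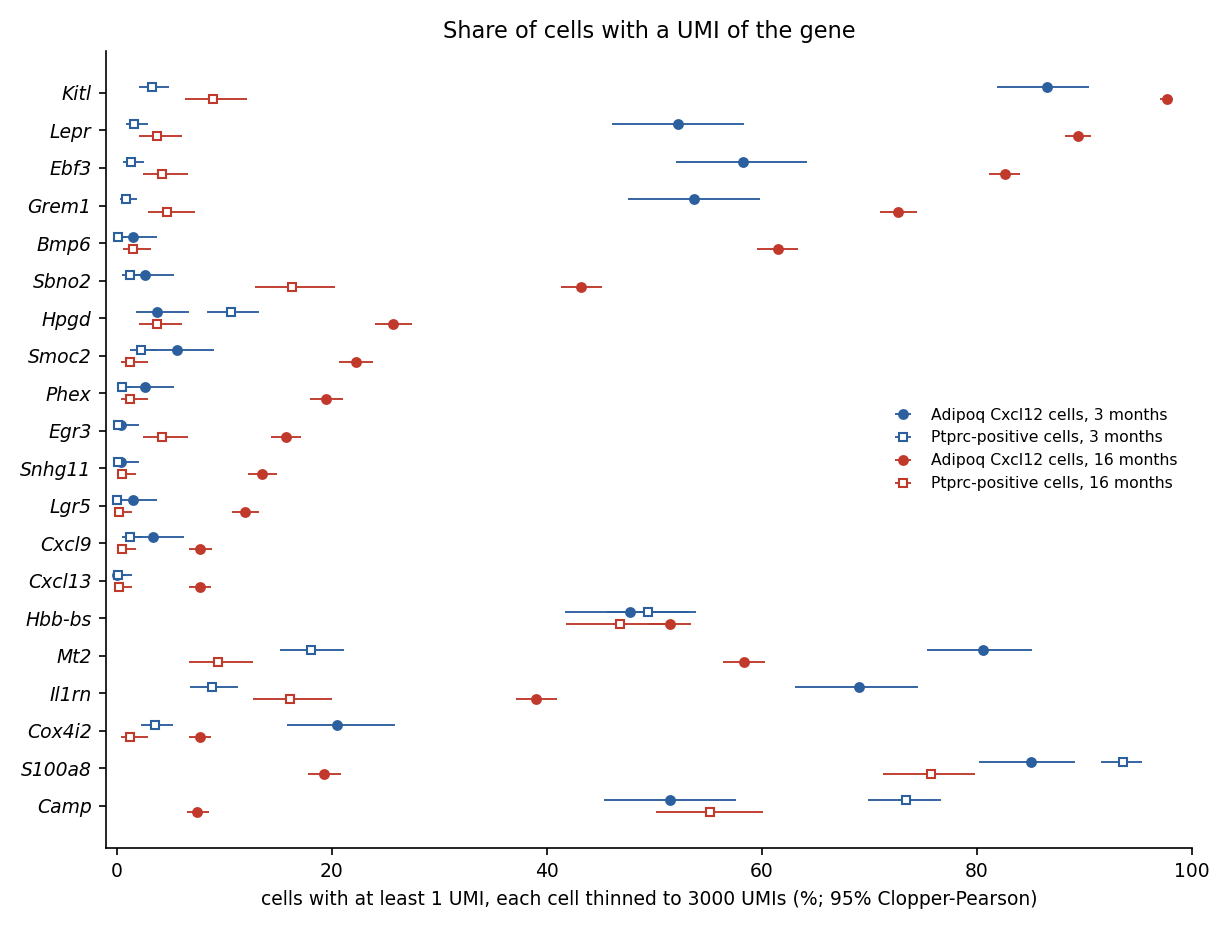
Percent of cells with at least 1 UMI of each gene after every cell was thinned to 3000 UMIs, in Adipoq Cxcl12 cells (filled circles) and Ptprc-positive cells (open squares) at 3 months (blue) and 16 months (red), with 95% Clopper-Pearson intervals. Bmp6 goes from 1.49% to 61.5% and Lepr from 52.2% to 89.4% with Ptprc-positive cells under 4%, while S100a8 goes from 85.1% to 19.3% with Ptprc-positive cells at 75.7% or more.

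Complement and acute-phase proteins were split as well. Of 10 tested complement genes 2 were higher and 1 lower (20% and 10%, against 5.3% and 1.39% of all tested genes). Median log2 ratios were 0.72 here, 0.88 in Ptprc-positive and 0.03 in Col1a1-high cells. C4b, a component of the classical and lectin cascades, was at 198, 277, 397 and 1050 CPM, higher in each older library, with a 16 to 3 month log2 ratio of 1.40 (1.28 to 1.53) and 27.8 CPM in Ptprc-positive cells at 16 months. Cfb, factor B of the alternative cascade, followed the same order at 5.74, 28.3, 50.9 and 129 CPM, with 7.81 and 3.78 in Col1a1-high cells. C2, which pairs with C4 in the convertase, was at 41.0, 116, 336 and 155 CPM and so was highest at 3 months, its log2 ratio against the mean of the younger libraries being -0.088, and Serping1, the C1 inhibitor, stood at 3754 and 2006 CPM (log2 -0.90, under 2-fold). Serpina3n, an acute-phase protease inhibitor, was higher with each older library, at 3.28, 35.1, 114 and 304 CPM, with 2.81 and 7.42 in Ptprc-positive cells, as was Itih5, which binds hyaluronan, at 36.1, 132, 187 and 403, with 7.28 and 24.7.

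Interferon-stimulated genes as a group did not go with the Cxcr3 ligands. Of 11 tested 1 was higher and 1 lower (9.09% each, against 5.3% and 1.39% of all tested genes), and 2 lower genes were set aside. The median log2 ratio was -0.86 in Adipoq Cxcl12 cells, -0.44 in Ptprc-positive cells and 0.05 in Col1a1-high cells. The higher one was Irf1, a transcription factor induced by interferon, at 238, 366, 229 and 666 CPM (log2 1.54, 1.37 to 1.71), which went from 67.1 to 180 CPM in Col1a1-high cells. The lower one was Bst2, which tethers budding virus, at 451 and 218 CPM, and Isg15 and Ifitm3 had log2 ratios of -0.86 and -0.84. Of 16 tested genes of MHC class I presentation 1 was higher (6.25%, near the 5.3% of all tested genes), H2-Q4, at 130 and 315 CPM. A further 1 higher and 2 lower genes were set aside. The median log2 ratio was -0.29 here, 0.27 in Ptprc-positive and 1.04 in Col1a1-high cells. The higher gene set aside was H2-T23, at 48.5 and 167 CPM. B2m, the shared light chain, was at 6995 and 2187 CPM but was set aside, since Ptprc-positive cells held 2286 and 877.

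The insulin-like growth factor axis had 3 higher and 1 lower of 11 tested genes (27.3% and 9.09%, against 5.3% and 1.39% of all tested genes). A further higher gene was set aside, and median log2 ratios were 0.43 here and 0.55 in Ptprc-positive cells. Igfbp5, a binding protein stored in bone matrix, was at 3198, 3930, 3210 and 7695 CPM, level among the younger libraries and above them at 16 months (log2 1.26, 1.22 to 1.31), with 59.9 and 215 in Ptprc-positive and 341 and 524 in Col1a1-high cells. Pappa, the protease that frees IGF from its binding proteins, was at 250, 318, 344 and 796 CPM (1.21), with at most 20.9 CPM in either kind of other cell. Irs2, which carries the signal from the insulin and IGF receptors, was at 81.4 and 205 CPM, with 20.8 and 64.4 in Col1a1-high cells. Htra1, a protease that cleaves binding proteins and matrix, was the lower one, at 300 and 118 CPM, and in Col1a1-high cells it was at 524 and 171.

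The 10 tested angiogenic factors had median log2 ratios of 0.64 here, 1.20 in Ptprc-positive and 0.79 in Col1a1-high cells. Of them 0 were lower and 3 higher (30%, against 5.3% of all tested genes). Besides Angpt1 these were Vegfa, the main growth factor of endothelium, at 180, 126, 90.02 and 278 CPM (log2 1.62, 1.36 to 1.90), and Vegfc, known for lymphatic and sinusoidal vessels, at 142, 221, 177 and 383 (1.11, 0.93 to 1.31). For Vegfa the 3 month library was the lowest of the younger ones, and Ptprc-positive cells moved too, from 9.77 to 56.5 CPM. Vegfc stayed at or below 9.92 CPM in both kinds of other cell.

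The transcripts of RANKL and of a main collagenase were lower. Tnfsf11, which encodes RANKL, the cytokine that osteoclasts need, was at 538, 439, 198 and 96.8 CPM, and Mmp13, a collagenase, at 2004, 1121, 535 and 208, each lower at every older age. Tnfsf11 was the only call among 3 tested osteoclast regulators. Their 16 to 3 month log2 ratios were -1.04 (-1.22 to -0.84) and -1.36 (-1.48 to -1.24). Tnfsf11 was at 3.31 and 6.85 CPM in Ptprc-positive cells, and Mmp13, which Col1a1-high cells hold at 2142 and 1587 CPM, was 1 of the 12 tested proteases and inhibitors of matrix, of which 2 others were higher. Adamts5, an aggrecanase, was one of these, at 56.4 and 168 CPM, with 75.0 and 238 in Col1a1-high cells, and Timp4, an inhibitor, the other, at 26.6 and 58.0. Tnfrsf11b, the RANKL decoy receptor, was at 2.35 and 2.61 CPM, too low to be tested. The 16 osteogenic genes had 1 higher and 1 lower (6.25% each, against 5.3% and 1.39% of all tested genes), with a median log2 ratio of -0.26. The higher one was Phex, an endopeptidase of bone cells, at 11.7 and 96.3 CPM, with 96.4 and 157 in Col1a1-high cells. The lower one was Mmp13 again.

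None of 19 tested collagen and basement membrane genes was called in either direction, though 2 lower ones were set aside. Proteoglycan and matricellular genes had 3 higher and 1 lower of 16 (18.8% and 6.25%, against 5.3% and 1.39% of all tested genes). Median log2 ratios were 0.51 here, 0.28 in Ptprc-positive and 0.15 in Col1a1-high cells. Ctgf, a matricellular protein known to follow mechanical load, was at 117, 145, 111 and 617 CPM and moved likewise in Col1a1-high cells, from 56.3 to 434. Dcn, decorin, a collagen-binding proteoglycan, was at 434, 473, 283 and 720 CPM, whereas Col1a1-high cells held 6325 and 4755. Efemp1, an elastic fibre protein, was higher in each older library, at 5.74, 26.3, 56.4 and 211 CPM, and stayed at or below 5.52 in the other cells. The lower gene was Wisp2, of the same family as Ctgf, at 616 and 250 CPM, with 112 and 36.1 in Col1a1-high cells.

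Of 16 tested antioxidant and metallothionein genes, whose products handle metal or peroxide, 2 were lower and 1 higher, and 1 lower gene was set aside. This was 12.5% lower and 6.25% higher, against 1.39% and 5.3% of all tested genes. The median log2 ratio was -0.29 here, -0.51 in Ptprc-positive and -0.35 in Col1a1-high cells. Mt2, a metallothionein induced by zinc and glucocorticoid, was at 341, 1551, 2164 and 709 CPM, so the 3 month library was the highest and 16 months lay above 1 month (log2 -1.61, -1.67 to -1.55, and -0.93 against the mean of the younger libraries). Col1a1-high cells moved the same way, from 1471 to 395 CPM. Gpx3, secreted glutathione peroxidase, was at 4003, 7682, 6802 and 2738 CPM, and at 7182 and 1694 in Col1a1-high cells. The higher gene was Txnip, an inhibitor of thioredoxin, at 55.6 and 219 CPM, with 43.0 and 112 in Col1a1-high cells. Of 9 tested glucocorticoid-responsive genes 0 were higher and 2 lower, Mt2 and Lcn2, the latter a neutrophil product at 3953 and 7021 CPM in Ptprc-positive cells.

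Immediate early genes respond within minutes to handling or stimulation. Of 23 tested 2 were higher (8.70%, against 5.3% of all tested genes) and 0 lower, and 1 higher and 1 lower gene were set aside. The lower one set aside was Jund, at 5207 and 2383 CPM (log2 -1.13). Median log2 ratios were 0.29 here, 0.62 in Ptprc-positive and 0.67 in Col1a1-high cells. Egr3 was at 0, 0.72, 1.57 and 78.9 CPM, but it also went from 0.33 to 64.7 in Col1a1-high cells and from 0.17 to 16.0 in Ptprc-positive cells. Egr1 was at 1111 and 2700 CPM here and at 387 and 834 in Col1a1-high cells. Sbno2, a co-repressor known from interleukin 10 and interleukin 6 signalling, behaved likewise, at 11.0 and 246 CPM here, 4.14 and 58.2 in Ptprc-positive and 5.86 and 88.3 in Col1a1-high cells. Of 9 tested clock genes 3 were higher (33.3%, against 5.3% of all tested genes). They were Nr1d1 (36.8 and 93.6 CPM), Dbp (20.4 and 65.9) and Tef (22.7 and 50.2), all outputs of the circadian clock. In Col1a1-high cells Nr1d1 was at 23.4 and 61.4 CPM, Dbp at 7.49 and 14.9 and Tef at 6.67 and 13.1. The hour of sacrifice was not used here. Of 14 tested heat shock genes 1 was higher (7.14%, near the 5.3% of all tested genes), Hsp90aa1, a chaperone, at 837 and 1825 CPM. Its log2 ratio was 1.12, and 0.95 with the limits of Cxcl12, Adipoq and Lpl doubled. Hspa1b, at 17.2 and 168 CPM (log2 3.26), was the 1 higher heat shock gene set aside. None of 3 tested Notch pathway genes was called, a list too short to set beside the shares of all tested genes. Cell cycle arrest genes did not stand out: of 9 tested senescence genes 0 were higher, and Cdkn1a, the p21 inhibitor of cycling, was lower at 465 and 219 CPM.

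Several less abundant genes moved further here than in either kind of other cell. Lgr5, a receptor for R-spondins that marks stem cells in gut and follicle, was at 0, 2.02, 4.70 and 51.0 CPM, with at most 4.30 in the other cells and a UMI in 11.9% of thinned cells at 16 months (25.3% unthinned). Smoc2, a matricellular protein, was at 3.28, 20.5, 19.6 and 101 CPM, while Col1a1-high cells went from 252 to 110. Snhg11, a long non-coding RNA, was at 0.82, 1.30, 1.57 and 60.8 CPM, with 0.66 and 2.28 in Ptprc-positive and 12.7 and 14.9 in Col1a1-high cells. Sox9, the transcription factor of cartilage and of skeletal progenitors, was at 60.7, 72.4, 51.7 and 109 CPM, with 57.8 and 39.8 in Col1a1-high cells. Hpgd, which degrades prostaglandin E2, was at 63.2, 49.1, 18.8 and 157 CPM, its 3 month level being the lowest, and 24.0 CPM in Ptprc-positive cells at 16 months. On the lower side the group held Car3, a carbonic anhydrase of fat and bone cells, at 63.4 and 13.1 CPM, and Ifitm1, an interferon-induced membrane protein, at 61.8 and 14.4, together with Pecam1, Gm13889 and the neutrophil genes Retnlg and Wfdc21.

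RNA of blood cells differed between the libraries more than any stromal list. The summed level of 12 neutrophil markers, none of them at 0 in both libraries, was 6149 CPM at 3 months and 289 at 16 months in Adipoq Cxcl12 cells, against 191373 and 238192 in Ptprc-positive cells. S100a8, a subunit of the calprotectin dimer and the most abundant of them, was at 5235, 223, 2543 and 87.4 CPM, high at 1 and 3 months and low at 1.5 and 16. In Ptprc-positive cells it was at 74450 and 75826 CPM, so the 25% criterion did not set it aside. Of the 8 tested markers 5 were counted as lower and 3 were set aside, with a median log2 ratio of -4.60 here, -4.03 in Col1a1-high and 0.02 in Ptprc-positive cells. Ltf, Camp and S100a9 followed the same order, and the signal was spread over cells, with S100a8 in 85.1% of thinned cells at 3 months and 19.3% at 16 months (92.3% and 50.1% unthinned).

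Hemoglobin went the other way. All 4 tested erythroid markers were counted as higher, with a median log2 ratio of 2.71 here and -0.44 in Ptprc-positive cells, and the 7 listed markers found in both tables summed to 535 and 3844 CPM here and 15131 and 11891 there. Hbb-bs, adult beta-globin, was at 5005, 1047, 240 and 2154 CPM, lowest at 3 months and highest at 1 month. A few cells carried most of it at 16 months, since the richest 10% of cells held 89.99% of its UMIs there and 36.2% at 3 months, and 61 cells at 16 months against 0 at 3 months had at least 100 erythroid UMIs per 10000. The share of thinned cells with an Hbb-bs UMI was 47.8% and 51.5% (59.7% and 84.3% unthinned), and 49.4% and 46.8% in Ptprc-positive cells. Against the mean of the 3 younger libraries its log2 ratio was 0.04, and those of Hba-a1 and Hba-a2 were negative. The part of captured blood cell RNA in these values was not tested.

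Markers of other cells went in different directions. The 10 chondrocyte markers summed to 381, 4237, 881 and 67.5 CPM at 1, 1.5, 3 and 16 months, highest at 1.5 months, and to 2652 and 362 in Ptprc-positive cells at 3 and 16 months, and the 4 tested ones were all set aside as lower. Osteoblast markers summed to 3603, 7438, 4219 and 3113 CPM, also highest at 1.5 months, against 140375 and 151823 in Col1a1-high cells at 3 and 16 months, with 1 lower (Car3) and 2 set aside of 6 tested. Bglap, osteocalcin, at 301 and 113 CPM, was set aside, since Ptprc-positive cells held 2708 and 842. Macrophage markers summed to 1786 CPM at 3 months and 2054 at 16 months, but most of this was Vcam1, the marrow stroma gene given above. Vcam1 is on that list, at 1315 and 1994 CPM. The other 3 of the 4 tested were set aside as lower, and the median log2 ratio of the 4 was -3.49. The complement component C1qa, which defines such cells, had a log2 ratio of -4.78. Mural cell markers summed to 175 and 288 CPM, and 1 of 2 tested endothelial markers, Pecam1, was lower.

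Few genes of respiration or translation were called, but more of them were at least 2-fold apart and set aside. The 75 tested genes of the respiratory chain and ATP synthase had a median log2 ratio of -0.56 here, -0.68 in Ptprc-positive and -0.41 in Col1a1-high cells, and only 5 of them were above 0. Cox4i2, an oxygen-sensitive subunit of cytochrome oxidase, was the 1 counted as lower (1.33%, near the 1.39% of all tested genes), at 90.8 and 28.8 CPM. A further 5 lower ones were set aside, Atp5o among them. The 12 mitochondrially encoded genes had a median of 0.91 here, 0.58 in Ptprc-positive and 1.02 in Col1a1-high cells, beside the higher mitochondrial share of the 16 month members (median 3.70% of UMIs against 2.49%). Of these 12 genes 0 were called and 5 higher ones were set aside. The 84 ribosomal protein genes, 0 of them called, had a median of -0.38 here, -0.37 in Ptprc-positive and 0.08 in Col1a1-high cells. Among them 18 lower and 4 higher ones were set aside, and 62 were under 2-fold.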

How the data were processed

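Single-cell RNA libraries of sorted Td+ endosteal marrow cells were used as the authors deposited them, as raw UMI counts per gene and barcode, without normalization. Per the labels, the submitters' processing notes name Cell Ranger 3.0.2, Seurat 2 and the mm10 build. The tables still hold barcodes outside the stated limits of 200 to 6000 genes and 5% mitochondrial UMIs, which were applied here. UMIs were summed over the Adipoq Cxcl12 cells of each library and divided by the total over the 26600 genes in both tables, 1218624, 6918103, 1277431 and 26863343 UMIs at 1, 1.5, 3 and 16 months. Log2 ratios had 0.5 UMI added to each sum, with exact conditional 95% intervals. CPM had Poisson intervals. A gene counted at 50 CPM or more, 2-fold or more, and not set aside as free RNA (25% of the difference in Ptprc-positive cells). With 1 library per age no test was made.

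Genes named were the 15 highest and 15 lowest counted, up to 4 per list at 20 CPM or more, label checks, and those that moved 2-fold further than in both other kinds of cell, the last chosen after the values were seen. Others, such as members needed to describe a list, are given by value. The cells and gene lists were chosen with earlier results of these data known. Python 3.11.15, numpy 2.4.6, scipy 1.17.1, pandas 2.3.3 and matplotlib 3.10.9 were used, and the scripts were tested on simulated data. Promoters came from RefSeq on GRCm38.p6 and were matched by symbol for 2596 of 3319 tested genes. Alternatives changed the cell limits, scaling, thinning, minimum CPM and free RNA rule. 1 gene that the naming rule chose is not reported here.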

Additional observations from a re-analysis of the deposited data

Results flagged for a closer look

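Genes whose symbol was in the 16 month table and not in the 3 month table entered no comparison, and 4454 such symbols held 1.44% of the UMIs of the Adipoq Cxcl12 cells at 16 months (1399 symbols listed at 3 months but not at 16 months held 1.73% of those at 3 months). The 5 with the highest level at 16 months were flagged for being outside the comparison, but 4 of them were listed at 3 months under another symbol, matched here through the RefSeq synonyms after the values were seen. Selenop, a secreted selenium carrier listed at 3 months as Sepp1, was at 1934 CPM at 3 months and 1178 at 16 months, with 578 and 313 in Ptprc-positive cells. Selenof, listed as Sep15, was at 722 and 608 CPM, and Selenow, listed as Sepw1, at 898 and 499. Rack1, a ribosomal scaffold listed as Gnb2l1, was at 307 and 560 CPM, with 646 and 1198 in Ptprc-positive cells. Each of these differences was under 2-fold. Cebpd, an adipogenic transcription factor that responds to glucocorticoid and inflammation, had no match and so no 3 month value here, and was at 1992 CPM (1976 to 2009) at 16 months, with 287 in Ptprc-positive cells. In all, 457 genes were matched under different symbols, 50 of them with at least 50 CPM at either age. Of these, 4 were at least 2-fold higher at 16 months and 2 at least 2-fold lower, with no gene set aside.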

How the results depend on the processing

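No paired analysis was possible because each age is 1 library of pooled mice, and no replicate could be left out. The counts of 176 higher and 46 lower genes became 324 and 82 with a minimum of 20 CPM, 116 and 27 with 100 CPM, 317 and 215 with no gene set aside (59.6% of calls higher against 79.3%), and 27 and 6 where a gene had to move 2-fold further than in both other kinds of cell, a setting chosen after seeing the data. With every cell that has a Ptprc UMI as the reference, 81 were higher (65.3% of calls), and with a free RNA limit of 10%, 30 were lower. Under the other settings 134 to 234 were higher and 36 to 69 lower. The share of filtered cells at 16 months was 39.4% with 10% mitochondrial UMIs allowed, 35.8% over every barcode, 22.4% with the 3 limits doubled and 67.6% with Cxcl12 alone, and at 3 months 3.25% and 13.0% under the last 2. Hba-a1 and Hba-a2 turned negative, at -0.032 and -0.41 with Cxcl12 alone, -0.42 and -0.11 without members that carry blood-cell RNA (209 and 2466 members left), and -0.42 and -0.45 against the mean of the younger libraries. The cause was not tested. Under the 12 settings that recompute each gene, Bmp6 stayed between 5.35 and 6.97 and Lepr between 1.75 and 2.18 on the log2 scale. Genes near 2-fold dropped under it in some settings, Tnfsf11 in 3, Dcn in 2, Cfb in 1, Angpt1, H2-Q4 and Nr1d1 in 1 each, C2, Sox9, Adamts5 and Timp4 in 2 each, and Tef and Car3 in 4 each of the 12. Summing the rows of a gene listed under several symbols, also added after seeing the data, kept all 176 and 46 calls. List medians changed sign for the early progenitor (0.06 and 0.07), plasma protein (-0.02), senescence (-0.00) and erythroid (-0.19) lists. A level of 1 UMI in the 3 month cells is 0.78 CPM, so lower levels were not detectable there.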
